A study of Homo sapiens with 6 samples.

Results

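The genes described here belong to the unfolded protein response and to the chaperone, oxidation and degradation machinery of the endoplasmic reticulum (ER). A list of 44 gene symbols was used, and all 44 were found among the 16792 genes of the deposited table. RNA was measured in EndoC-βH1 cells (EndoCBH1 in the labels), an established human beta cell line of fetal pancreatic origin. In 3 libraries the cells had been transfected with siRNA against the homeobox gene MNX1 (siMNX1, genotype given as MNX1 knock down), and in 3 with a non-targeting control siRNA (siNT, genotype given as WT). The study asked whether MNX1 keeps somatostatin off in human beta cells by repressing PERCC1. The sources used here give neither dose nor time after transfection, and all 6 libraries come from a single cell line. Nothing says that the replicates were separate cultures, or whether siMNX1 replicates 1 to 3 received the same siRNA sequence or different ones, so the p-values reflect the spread of these libraries alone, which may be technical.

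Proteins destined for secretion fold in the ER, where chaperones bind nascent chains and oxidoreductases form their disulphide bonds. When unfolded protein builds up, the sensors IRE1 (ERN1), PERK (EIF2AK3) and ATF6 raise chaperone and degradation genes and slow translation through phosphorylation of eIF2alpha, and the factor ATF4 then drives amino acid and stress genes. Beta cells make proinsulin in very large amounts and depend on this system more than most cells, and mutations in genes such as EIF2AK3 and WFS1 cause diabetes.

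The targeted gene was read first. In siNT, MNX1 (chromosome 7, 156994051 to 157010651, minus strand, GRCh38) stood at 2039, 2033 and 1988 normalized counts, and in siMNX1 at 1885, 1708 and 1751, each in the order of replicates 1 to 3, which is kept below. Every siMNX1 library was lower, with a log2 fold change of -0.18 (95% interval -0.31 to -0.06), and an adjusted p from limma of 0.116, above the threshold. Deposited totals were 18406479 to 18704645 per library and follow the authors' normalization, so depth is unknown. Mitochondrial transcripts took 5.39% to 6.81% of a library in siNT and 5.43% to 6.49% in siMNX1. In principal components over all genes, the first (29.4% of the variance) separated the groups, and siMNX1 replicates 1 and 2 lay at -29.4 and 31.7 on the second, with the other 4 libraries between -2.40 and 2.66. All 16 beta cell markers looked up were listed, with INS at a mean of 110539 normalized counts in siNT, but IAPP had only 57.8 in siNT and 15.3 in siMNX1. The summed level of those markers was 314163 to 328933 in siNT and 386797 to 400610 in siMNX1, that of 5 listed delta cell markers (of 6) 7370 to 7568 and 10038 to 11290, and that of 4 listed alpha cell markers (of 7) 19075 to 20514 and 16862 to 18278. The delta sum is mostly CASR (mean 6112 in siNT and 8607 in siMNX1), and within it SST went from 220 to 858 and HHEX from 54.1 to 484, while RBP4 went from 981 to 507. The part of these shifts in the results below was not tested. Of the acinar, ductal, mesenchymal, immune and endothelial markers 2 of 7, 1 of 5, 2 of 6, 1 of 3 and 0 of 3 were listed. In bulk RNA, fewer cells of a type and less RNA per cell cannot be told apart.

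Promoter sequences are shown because ATF6, XBP1 and ATF4 are known to act through short elements close to the start of many of these genes. The ER stress response element (ERSE) has the letters CCAAT and CCACG with any 9 bases between them, and its short form, ERSE-II, has ATTGG and CCACG with any 1 base between them. Both were searched on both strands from 250 bases before to 50 bases after each RefSeq start (GRCh38.p14), which gave a window for 41 of the 44 genes. ERSE was present in 8 of these 41 (19.5%) against 25 of 27305 genes with a window (0.0916%), and ERSE-II in 3 of 41 (7.32%) against 19 (0.0696%). Both elements were searched because they are known from genes of this response. A higher share among the 41 was therefore set in advance and is no finding of these data. The matches are listed 5′ to 3′ in the orientation of the motif, with the fixed letters in capitals, and each line holds sequence from RefSeq.
HSPA5: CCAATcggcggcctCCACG
XBP1: CCAATcgcggagggCCACG
HSP90B1, nearer match: CCAATcgcgccgcaCCACG
HSP90B1, farther match: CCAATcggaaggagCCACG
CALR: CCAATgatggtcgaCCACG
CANX: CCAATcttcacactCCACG
PDIA6: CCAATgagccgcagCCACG
ERO1B: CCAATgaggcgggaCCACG
CRELD2: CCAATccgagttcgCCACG
HERPUD1: ATTGGgCCACG
SDF2L1: ATTGGtCCACG
HYOU1, both matches: ATTGGaCCACG

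These matches begin between 52 bases (XBP1) and 243 bases (ERO1B) before the start, and the HSPA5 match begins 66 bases before it. They are letter matches and not measured binding sites. None of the 11 genes passed the threshold with MNX1 siRNA. The log2 fold changes of the 8 ERSE genes ran from -0.12 (CRELD2) to 0.09 (HSPA5), with 3 above and 5 below 0, and those of the 3 ERSE-II genes from -0.10 (HYOU1) to 0.20 (HERPUD1). Over all deposited genes with a match, 0 of 16 ERSE genes and 1 of 14 ERSE-II genes were called by limma. The called gene was NUCB1, which encodes a calcium-binding protein of the Golgi (log2 fold change 0.29, limma, adjusted p = 0.0183), named after its values were seen. Of all genes tested, with or without a window, 3.32% were called, so these counts from few genes cannot show whether genes with a match differ from others.

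3 upstream stretches are shown, of the central ER chaperone, a degradation gene with matches to 2 kinds of element, and the only gene of the list past the threshold. Each is given on the strand of the gene and ends at the base before the RefSeq or the GENCODE 29 start, whichever lies further upstream. Capitals mark matches to every fixed letter of an element, and near matches, which were not searched, stay in lower case. In HSPA5 (chr9:125241344-125241593, minus strand) they mark an ERSE. In HERPUD1 (chr16:56931892-56932047, plus strand) they mark the ERSE-II and, nearer the 5′ end and on the opposite strand, an ATF4-type element (searched as TGATGNAA). In PPP1R15A (chr19:48872171-48872391, plus strand) they mark a CRE, the palindrome TGACGTCA bound by CREB and ATF factors.
HSPA5: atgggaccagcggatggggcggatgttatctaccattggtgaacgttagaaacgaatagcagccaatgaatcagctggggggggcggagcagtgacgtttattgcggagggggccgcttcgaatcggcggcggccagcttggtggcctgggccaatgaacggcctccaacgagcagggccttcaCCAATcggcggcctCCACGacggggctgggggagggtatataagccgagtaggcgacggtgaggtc
HERPUD1: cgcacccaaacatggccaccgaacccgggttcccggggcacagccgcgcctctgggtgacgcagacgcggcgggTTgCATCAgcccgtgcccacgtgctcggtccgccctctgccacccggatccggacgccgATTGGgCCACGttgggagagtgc
PPP1R15A: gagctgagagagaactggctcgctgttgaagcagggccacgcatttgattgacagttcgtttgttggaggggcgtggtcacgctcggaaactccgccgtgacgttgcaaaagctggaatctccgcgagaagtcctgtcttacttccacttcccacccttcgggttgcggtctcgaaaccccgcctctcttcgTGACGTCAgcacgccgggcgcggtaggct

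The element searched as TGATGNAA was in 6 of 41 windows (14.6%) against 4.46% of all genes, namely those of ASNS, ATF3, CHAC1, CREB3L2, HERPUD1 and PPP1R15B, and the log2 fold changes of these genes ran from -0.03 to 0.45. The CRE was in 2 of 41 (4.88%) against 2.25% of all genes, PPP1R15A and CREB3L2. TGACGTGG, the element preferred by XBP1 and ATF6, was in 2 of 41 (4.88%) against 0.927%, HYOU1 and DNAJC10, and can overlap with ERSE-II letters, as in HYOU1. The background shares for these elements count all 27305 genes with a window, including genes outside the deposited table. These elements too were picked because factors of this response are known to use them, so the shares of the 41 genes test nothing. Of the 11515 deposited genes with a window, 421 had a CRE, 308 TGATGNAA and 137 TGACGTGG. Of the 421 with a CRE, 11 were called higher (2.61%) and 1 lower (0.238%). Of all 16792 genes tested, with or without a window, 1.99% were called higher and 1.33% lower. The same counts were 9 (2.92%) and 5 (1.62%) of the 308 with TGATGNAA, and 5 (3.65%) and 3 (2.19%) of the 137 with TGACGTGG, with no test of these shares.

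Among the unfolded protein response genes, PPP1R15A was higher and no gene was lower, 1 of 44 (2.27%) by limma at an adjusted p of 0.05, where 3.32% of all genes tested passed, namely 1.99% as higher and 1.33% as lower. The groups did not overlap for 13 of the 44 genes (29.5%), 10 higher and 3 lower with MNX1 siRNA, where 24.0% of all genes did not overlap, 12.0% as higher and 12.1% as lower. At an unadjusted p under 0.05 limma gave 9 higher and 3 lower (27.3%), where 18.4% of all genes passed. The median log2 fold change of the 44 genes was 0.03 and that of all genes -0.0004, with 27 of the 44 above 0 and 17 below. For 28 genes the log2 fold change lay within 0.1 of 0, and for 40 the 95% interval lay within a 1.5-fold change in either direction. The 4 genes whose intervals reached beyond that bound were DERL3, PPP1R15A, CHAC1 and ATF3. The interval of PPP1R15A (0.34 to 0.77) was narrower than that of the less abundant ERN1 (0.03 to 0.56), which lay within the bound.

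**Figure D1:**
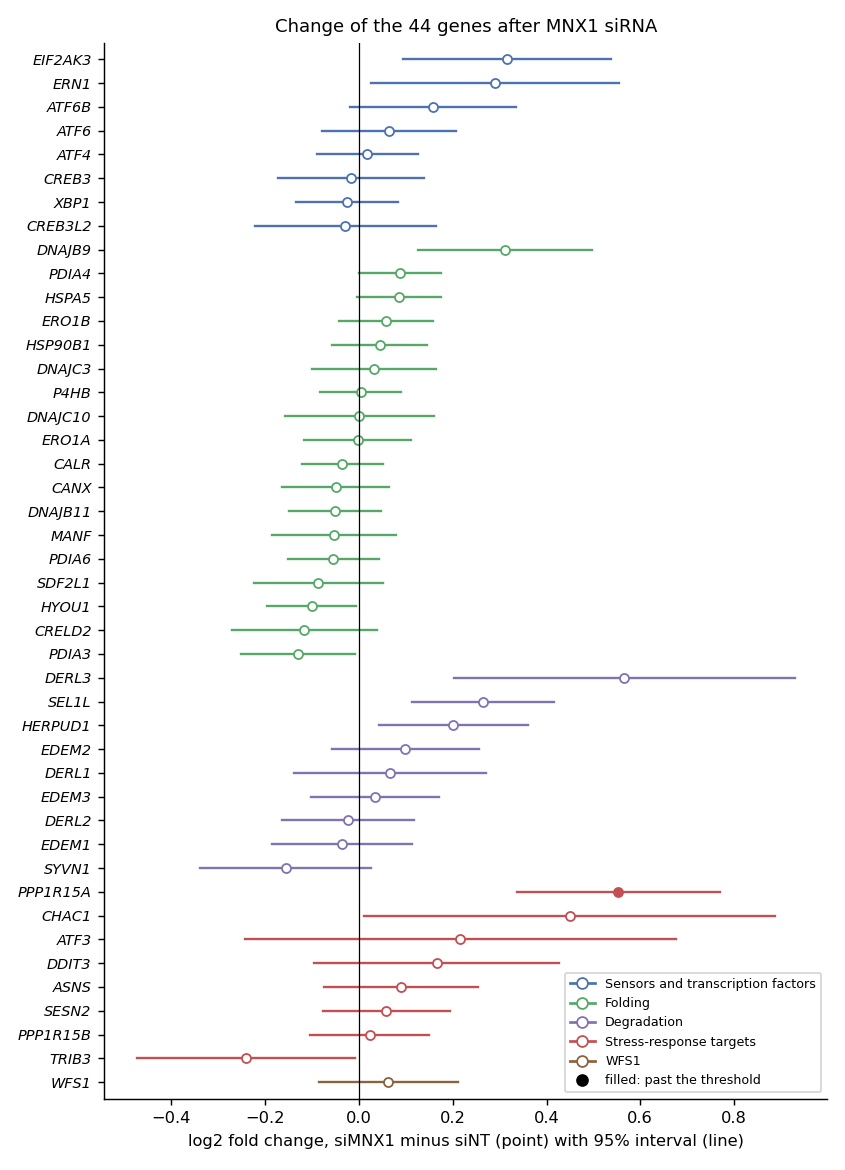
Log2 fold change of each of the 44 genes (siMNX1 minus siNT, horizontal axis) with its 95% interval from limma, grouped and coloured by role. PPP1R15A (0.55) is the only filled point, past the threshold, and most of the other points lie close to 0.

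Taken as a sum, the 44 genes held 1.16% ± 0.0316 of the deposited total in siNT and 1.16% ± 0.0238 in siMNX1 (SD, n = 3 each), with no test made on the sum. The folding genes made up most of it, 0.974% ± 0.0254 and 0.968% ± 0.0203. Per kilobase of the principal GENCODE 29 transcript, HSP90B1 was the most abundant at 12187 normalized counts per kb in siNT, then CALR at 11526, P4HB at 6958, PDIA3 at 4754 and PDIA6 at 4547. PDIA3 and PDIA6 overlapped in their siNT libraries. HSPA5 (3560) overlapped with PDIA4 (3630) above it and CANX (3505) below it, while every siNT library of PDIA4 (3573 to 3699) stood above those of CANX (3467 to 3525). At the other end stood the sensors EIF2AK3 (59.1) and ERN1 (27.1) and the stress genes CHAC1 (26.7) and ATF3 (19.7). Of the 43 neighbouring pairs in this order, 23 overlapped in siNT. The largest shift of a gene between the order in siNT and in siMNX1 was 2 places. DNAJC10 (90.7 per kb) was divided by a principal transcript of 20129 bases, which sets it low.

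**Figure D2:**
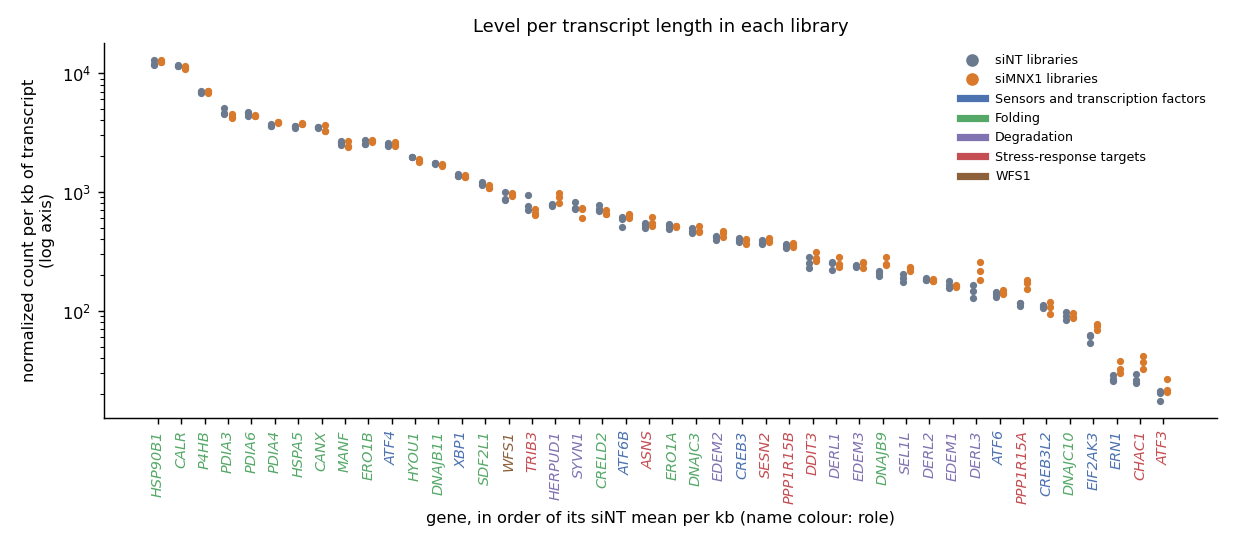
Normalized counts per kb of principal transcript (log axis) in each of the 3 siNT and 3 siMNX1 libraries, genes in order of the siNT mean, names coloured by role. Folding genes fill the upper end, from HSP90B1 at 12187 per kb in siNT, and the 2 groups of points overlie each other for most genes.

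Of the 8 sensors and transcription factors, 0 passed the threshold, where 3.32% of all genes passed. The groups did not overlap for 2, both higher (25%, where 24.0% of all genes did not overlap and 12.0% were higher without overlap). EIF2AK3 encodes PERK, the kinase that phosphorylates eIF2alpha (chromosome 2, 88556741 to 88627576, minus strand, GRCh38). Its siNT libraries had 288, 287 and 249 normalized counts, and its siMNX1 libraries 322, 346 and 358. The groups did not overlap, and the log2 fold change was 0.32 (95% interval 0.09 to 0.54, limma, adjusted p = 0.125). ERN1, which encodes IRE1, the kinase and endoribonuclease that splices XBP1 mRNA, had 227, 202 and 209 in siNT and 253, 234 and 299 in siMNX1. These groups were apart as well, with a log2 fold change of 0.29 (95% interval 0.03 to 0.56, limma, adjusted p = 0.222), or 0.19 without siMNX1 replicate 3.

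ATF6, the third sensor, a membrane-bound factor that is cleaved in the Golgi to free its transcription domain, had 1074, 1033 and 975 in siNT and 1061, 1113 and 1047 in siMNX1. The groups overlapped, with a log2 fold change of 0.06 (95% interval -0.08 to 0.21). Its paralogue ATF6B had 1494 ± 158 and 1662 ± 58.6 (log2 fold change 0.16, limma, adjusted p = 0.326), and its log2 fold change was 0.07 without siNT replicate 1. CREB3 and CREB3L2, membrane-bound factors related to ATF6, had log2 fold changes of -0.02 and -0.03.

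The transcript totals of the factors downstream of the sensors overlapped between the groups. XBP1 had 2624, 2529 and 2497 in siNT and 2468, 2575 and 2473 in siMNX1 (log2 fold change -0.03, 95% interval -0.14 to 0.08). Its spliced and unspliced forms share this gene-level value, so splicing by IRE1 cannot be read from it. ATF4 had 5205, 4996 and 4911 in siNT and 5092, 5303 and 4909 in siMNX1 (log2 fold change 0.02, 95% interval -0.09 to 0.13). ATF4 is controlled mainly by translation, which was not measured here.

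**Figure D3:**
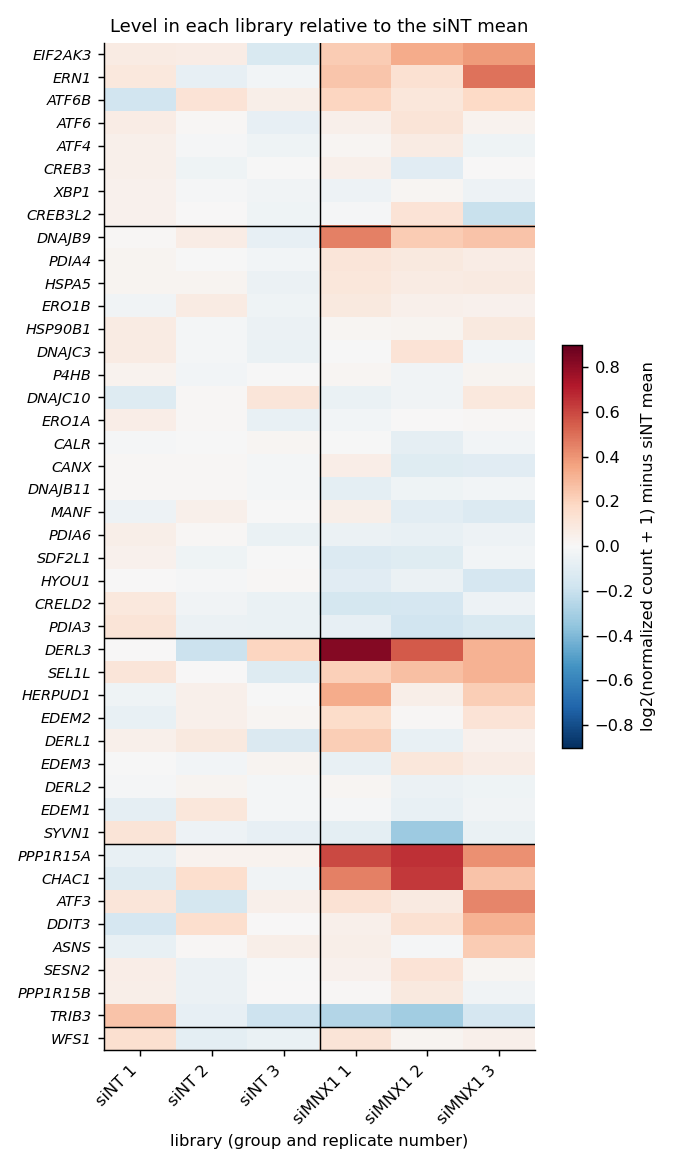
Heat map of each gene (rows, grouped by role as sensors and factors, folding, degradation, stress-response targets and WFS1) in each library (columns), as log2(normalized count + 1) minus the siNT mean. PPP1R15A and DERL3 are above the siNT mean in all 3 siMNX1 libraries, while most rows stay pale.

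Among the 18 folding genes, 0 passed the threshold, where 3.32% of all genes passed. Their log2 fold changes were above 0 for 8 and below 0 for 10, with a median of -0.02. HSPA5, which encodes BiP, the chaperone that holds the sensors inactive, had 14162, 14161 and 13418 in siNT and 14933, 14655 and 14700 in siMNX1. Every siMNX1 library was higher, but by only 1.06-fold, with a log2 fold change of 0.09 (95% interval -0.004 to 0.18, limma, adjusted p = 0.295). HSP90B1, which encodes the ER HSP90 paralogue GRP94, had 36669, 34326 and 33497 in siNT and 35217, 35420 and 37063 in siMNX1. Those groups overlapped (log2 fold change 0.04, 95% interval -0.06 to 0.15). The lectin chaperones CALR and CANX, which hold glycoproteins until they fold, had log2 fold changes of -0.04 and -0.05, with 95% intervals of -0.12 to 0.05 and -0.16 to 0.06.

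Of the co-chaperones of BiP, DNAJB9 (chromosome 7, 108569568 to 108574850, plus strand), an ER J protein that is among the classical targets of XBP1, had 561, 585 and 530 in siNT and 763, 655 and 667 in siMNX1. The groups did not overlap, and its log2 fold change of 0.31 (95% interval 0.13 to 0.50) missed the threshold (limma, adjusted p = 0.0782). DNAJB11, a J protein that delivers clients to BiP, had 4196 ± 44.7 and 4049 ± 92.8, lower in every siMNX1 library (log2 fold change -0.05). HYOU1, a nucleotide exchange factor of BiP, had 8918 ± 82.1 and 8318 ± 277, also without overlap (log2 fold change -0.10, limma, adjusted p = 0.235). None of these 3 co-chaperones passed the threshold, and differences between them were not tested. DNAJC3, an inhibitor of PERK-type kinases, and SDF2L1, a partner of DNAJB11, had log2 fold changes of 0.03 and -0.09.

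PDIA4, an oxidoreductase of disulphide bond formation, had 10538 ± 186 and 11200 ± 150, higher in every siMNX1 library (log2 fold change 0.09, limma, adjusted p = 0.266). PDIA3, the oxidoreductase that works with CALR and CANX, had 17716 ± 1236 and 16176 ± 551, lower in every siMNX1 library (log2 fold change -0.13, limma, adjusted p = 0.241), and its log2 fold change was -0.07 without siNT replicate 1. PDIA6, P4HB and DNAJC10 had log2 fold changes of -0.05, 0.004 and 0.0003. ERO1B, the pancreas-enriched oxidase that recharges these enzymes, had 11511, 12400 and 11461 in siNT and 12540, 12161 and 12112 in siMNX1, which overlapped (log2 fold change 0.06, 95% interval -0.04 to 0.16). ERO1A, its broadly expressed paralogue, had 2713 ± 121 and 2706 ± 31.1 (log2 fold change -0.003), and ERO1B stood above it in each group at 2582 against 513 normalized counts per kb in siNT. MANF and CRELD2, small ER stress proteins that can be secreted, had log2 fold changes of -0.05 and -0.12, the latter -0.07 without siNT replicate 1.

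Of the 9 degradation genes, 0 passed the threshold, where 3.32% of all genes passed. The groups did not overlap for 3, all higher (33.3%, where 24.0% of all genes did not overlap and 12.0% were higher without overlap). These were DERL3, SEL1L and HERPUD1. DERL3 (chromosome 22, 23834503 to 23839128, minus strand), a stress-induced Derlin of the retrotranslocation channel, had 125, 109 and 143 in siNT and 223, 184 and 156 in siMNX1. The means differed 1.49-fold, with a log2 fold change of 0.57 (95% interval 0.20 to 0.93, limma, adjusted p = 0.0962). SEL1L (chromosome 14, 81471549 to 81533861, minus strand), the adaptor of the HRD1 ubiquitin ligase, had 1609, 1493 and 1377 in siNT and 1726, 1799 and 1848 in siMNX1. Here the log2 fold change was 0.26 (95% interval 0.11 to 0.42, limma, adjusted p = 0.0674).

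HERPUD1 (chromosome 16, 56932048 to 56944863, plus strand), which organizes the same ligase complex, had 2223, 2351 and 2276 in siNT and 2873, 2370 and 2656 in siMNX1. The lowest siMNX1 library, replicate 2, lay just above the highest siNT library, and the log2 fold change was 0.20 (95% interval 0.04 to 0.36, limma, adjusted p = 0.165). Without siMNX1 replicate 2 HERPUD1 passed, with a log2 fold change of 0.28 (limma, adjusted p = 0.0441). SYVN1, which encodes the HRD1 ligase itself, lay on the other side of 0 with 2382 ± 175 and 2141 ± 212 (log2 fold change -0.16, 95% interval -0.34 to 0.03), and its log2 fold change was -0.10 without siNT replicate 1 and -0.07 without siMNX1 replicate 2. EDEM1, EDEM2 and EDEM3, which trim or recognise the mannose of misfolded glycoproteins, had log2 fold changes of -0.04, 0.10 and 0.03, and the Derlins DERL1 and DERL2 had 0.07 and -0.02.

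PPP1R15A was the only gene of the list that passed the threshold, where 1.99% of all genes passed as higher. Without overlap 10 of the 44 were higher, where 12.0% of all genes were. PPP1R15A encodes GADD34, the stress-induced subunit that directs protein phosphatase 1 to eIF2alpha and so reverses the action of PERK (chromosome 19, 48872392 to 48876057, plus strand). The siNT libraries had 259, 277 and 277 normalized counts, and the siMNX1 libraries 409, 428 and 360. Every siMNX1 library stood well above the siNT libraries, which lay close together, and the means differed 1.47-fold (271 ± 10.4 and 399 ± 35.3). Its log2 fold change was 0.55 with an SE of 0.0964 and passed in limma (adjusted p = 0.0165). The call ended when siNT replicate 1, 2 or 3 or siMNX1 replicate 1 was left out (limma, adjusted p = 0.059, 0.0577, 0.0646 and 0.0673), and without a variance trend (0.0564), while the log2 fold change stayed between 0.50 and 0.63 over all 15 alternatives. PPP1R15B, which encodes the constitutive counterpart of GADD34, had 1838 ± 67.7 and 1868 ± 78.5 (log2 fold change 0.02, 95% interval -0.10 to 0.15).

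**Figure D4:**
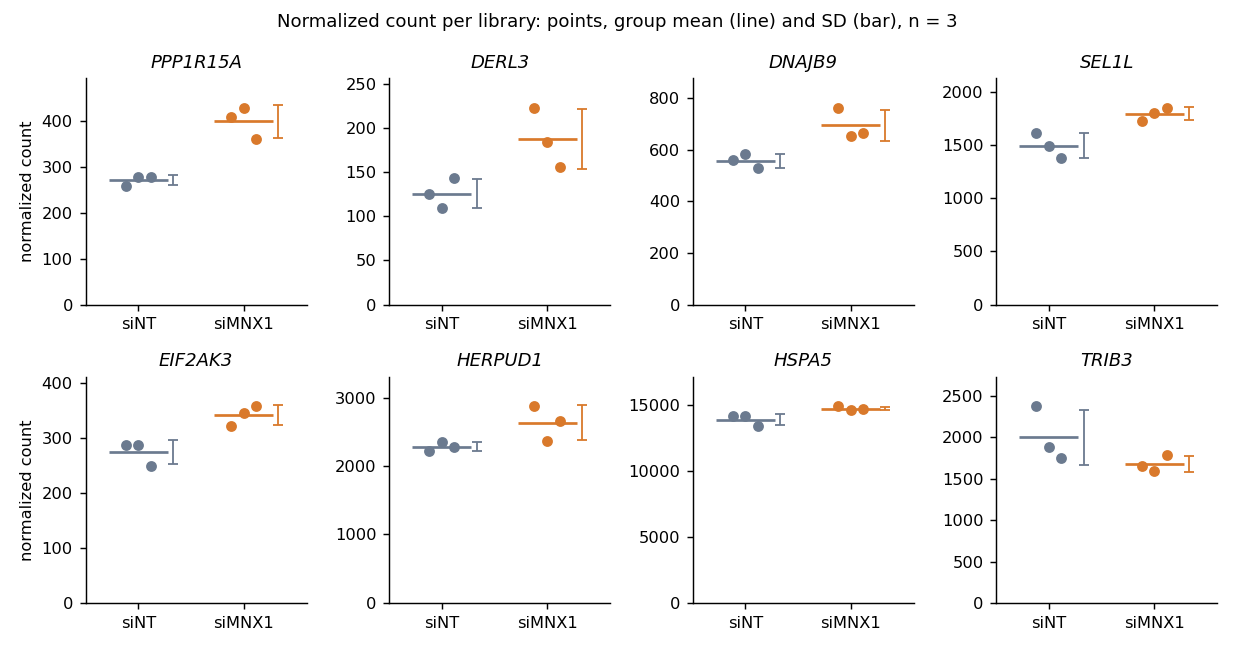
Normalized counts in each library for 8 genes, with the group mean (line) and SD (bar), n = 3 per group and axes from 0. PPP1R15A goes from 271 to 399 and is the only gene shown that passed the threshold, HSPA5 differs by 1.06-fold, and the TRIB3 groups overlap.

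The other 7 stress-response targets did not pass, where 3.32% of all genes passed. DDIT3, which encodes the pro-apoptotic factor CHOP, had 215, 264 and 238 in siNT and 246, 262 and 296 in siMNX1 (log2 fold change 0.17, 95% interval -0.10 to 0.43), or 0.09 without siNT replicate 1 or siMNX1 replicate 3. CHAC1, a glutathione-degrading enzyme, had 41.7 ± 4.08 and 57.5 ± 7.63, without overlap (log2 fold change 0.45, limma, adjusted p = 0.26), and ATF3 had 40.0 ± 3.84 and 46.8 ± 6.62 (log2 fold change 0.22, or 0.14 without siNT replicate 2 and 0.10 without siMNX1 replicate 3). TRIB3, a pseudokinase induced by ATF4 and CHOP, had 2376, 1887 and 1745 in siNT and 1655, 1599 and 1791 in siMNX1. It was the only one of the 8 genes with a log2 fold change below 0 (-0.24, 95% interval -0.47 to -0.01, limma, adjusted p = 0.253), the groups overlapped, and siNT replicate 1 was the highest library. Without it the log2 fold change was -0.11.

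ASNS, the ATF4 target that makes asparagine, had 1181, 1246 and 1281 in siNT and 1284, 1224 and 1444 in siMNX1 (log2 fold change 0.09, 95% interval -0.07 to 0.25). SESN2, a stress protein that restrains mTORC1, had a log2 fold change of 0.06. WFS1, which encodes the ER membrane protein wolframin, had 3650, 3107 and 3160 in siNT and 3569, 3357 and 3406 in siMNX1. For both ASNS and WFS1 the groups overlapped, and the interval for WFS1 was -0.09 to 0.21 around a log2 fold change of 0.06.

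For 17 of the 44 genes, exons overlap those of another deposited gene in GENCODE 29. The sources used here do not say how strand was handled. Reads of DDIT3 and MARS1, of DERL3 and SMARCB1, of DNAJB9 with PNPLA8 and THAP5, and of EIF2AK3 and EIF2AK3-DT, all on opposite strands, therefore cannot be fully told apart. ASNS, ATF6B, DNAJB11 and SYVN1 overlap a gene on the same strand, which strand handling alone would not separate. No exon overlap was found for PPP1R15A, HSPA5, SEL1L, HERPUD1, ERN1 or TRIB3.

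Related genes outside the 44 were read from 7 lists. In ER degradation, 1 of 43 was higher and 1 lower (4.65%, where 3.32% of all genes were called). FAM8A1, a cofactor of the HRD1 ligase, had 1040, 1001 and 990 in siNT and 1343, 1367 and 1341 in siMNX1, and rose by a log2 fold change of 0.42 (limma, adjusted p = 0.004). It was called in 15 of 15 alternatives (limma, adjusted p between 0.00297 and 0.0408). HM13, the signal peptide peptidase, fell, with 6315 ± 66.7 in siNT and 5532 ± 127 in siMNX1 (log2 fold change -0.19, limma, adjusted p = 0.0398), a call that ended with any of the 6 libraries left out (adjusted p from 0.0731 to 0.148).

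In the eIF2 pathway, 1 of 21 listed genes was higher and 0 lower (4.76%, where 3.32% of all genes were called). GCN1, the ribosome-bound activator of the amino acid sensor GCN2, rose, with 4238 ± 194 in siNT and 5221 ± 340 in siMNX1 (log2 fold change 0.30, limma, adjusted p = 0.0267). That call was kept only when siMNX1 replicate 3 was the library left out, and the adjusted p from limma ranged between 0.0302 and 0.105 as each library was omitted. The other ER folding genes gave 0 calls of 36 with a median of 0.01, ER translocation 0 of 31 with -0.02, other ATF4 targets 0 of 40 with -0.06 and other regulators of the response 0 of 27 with 0.02. At an unadjusted p under 0.05, where limma gave 18.4% of all genes, it gave 5 higher and 4 lower of the ER folding list (25%) and 0 and 2 of translocation (6.45%). It gave 3 higher and 8 lower of the ATF4 targets (27.5%) and 3 and 3 of the other regulators (22.2%). GANAB and PRKCSH, the subunits of glucosidase II, had log2 fold changes of -0.03 and -0.04, and RPN1 and RPN2 of the oligosaccharyltransferase had -0.02 and -0.03. VEGFA and AARS1, the most abundant of the other ATF4 targets, had 0.02 and 0.15, and TMBIM6 and TMED10 had 0.16 and 0.08.

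Heat shock proteins of the cytosol and mitochondria, the folding machinery outside the ER, were read for comparison. Of 20 listed genes 3 were lower and 0 higher (15%, where 1.33% of all genes were called lower), 18 lay below 0 on the log2 scale, and their median log2 fold change was -0.11. The groups did not overlap for 13 of the 20, all lower, where 12.1% of all genes were lower without overlap. HSPA9, the mitochondrial HSP70, had 5672, 5321 and 5206 in siNT and 4400, 4517 and 4528 in siMNX1, and fell with a log2 fold change of -0.27 (limma, adjusted p = 0.0179). HSPD1, the mitochondrial chaperonin HSP60, fell, with 10522 ± 248 in siNT and 9274 ± 202 in siMNX1 (log2 fold change -0.18, limma, adjusted p = 0.0447). DNAJA1, a J protein of cytosolic HSP70, fell, with 6286 ± 123 in siNT and 5529 ± 31.3 in siMNX1 (log2 fold change -0.19, limma, adjusted p = 0.042). The calls of HSPD1 and DNAJA1 ended with any of the 6 libraries left out, that of HSPD1 also with equal totals (adjusted p of 0.0509), and that of HSPA9 without siNT replicate 1 or 2 or siMNX1 replicate 1 (adjusted p of 0.0605, 0.0629 and 0.0697). The list mixes both compartments, with 2 of its called genes acting in mitochondria. HSPA1A (-0.22) and HSPA1B (-0.08) are near-identical copies whose reads can be split between them.

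**Figure D5:**
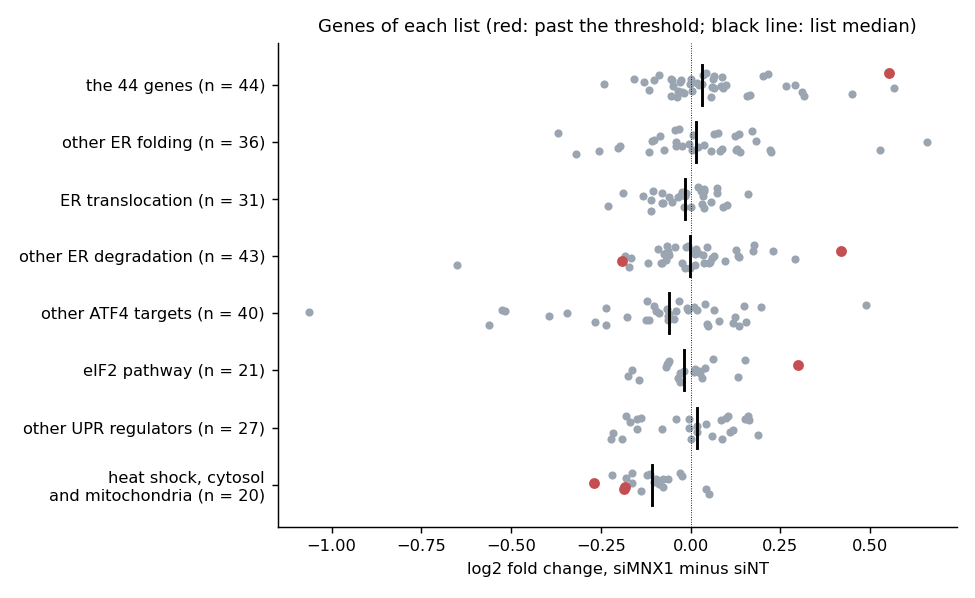
Log2 fold change (siMNX1 minus siNT) of every gene of the 44 and of the 7 related lists, called genes in red and list medians as black lines. The 44 genes centre on 0.03, and the heat shock genes of the cytosol and mitochondria on -0.11 with 3 calls, all lower.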

How the data were processed

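The file the authors deposited holds normalized counts, a non-negative signal with decimals for each gene. Per the submitters' processing notes DESeq2 1.26.0, DESeq and R 3.6.3 were used, as were RSEM 1.3.1 and STAR 2.7.6a on build GRCh38. Their roles are not stated. Libraries were made from 5 ng of RNA with the Ovation Solo kit, per the labels' protocols. Whole reads could not be recovered (25.5% to 47.4% of values under 10 lay within 0.02 of a whole multiple of the best step), so no count model was fitted. Values were analysed as log2(value + 1) with limma 3.58.1 (R 4.3.3, variance trend) over all 16792 genes, with Benjamini-Hochberg adjustment and a threshold of 0.05. Fold changes on this scale understate low genes. A minimum mean of 5 removed no gene, the lowest mean being 6.57. The procedure was tested on simulated data. No value was identical between libraries.

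The 44 genes and all lists were chosen with earlier results of these data known. All 44 are named. Those past the threshold and 13 fixed ones have values in every library, to which DERL3, SEL1L and DNAJB9 were added after their values were seen. From each related list, up to 4 called genes or else the 2 most abundant are named. Alternatives were other pseudocounts, filters, scalings and variance models, a replicate block and each library left out. Python 3.11.15, pandas 2.3.3, numpy 2.4.6 and matplotlib 3.10.9 were used.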

Additional observations from a re-analysis of the deposited data

How the results depend on the processing

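PPP1R15A was the only gene of the 44 called in the main comparison. The count of higher genes among the 44 was 0 with no variance trend, 0 with a replicate block, and 0 to 2 with a library left out, the 2 being PPP1R15A and HERPUD1 without siMNX1 replicate 2. The count of lower genes was 0 under all 15 alternatives. Over all genes, 335 higher and 223 lower became 131 and 60 with no variance trend, 162 and 75 with the replicate block, and 133 to 257 and 64 to 179 with a library left out. Deviations of same-numbered libraries from their group means correlated at -0.0135, -0.00855 and -0.0377, which shows no shared effect by number. Such correlations, from 3 libraries per group, cannot show whether same-numbered libraries were prepared together. Under the block PPP1R15A had an adjusted p of 0.0544. Other pseudocounts, filters, scalings and the robust variance model ended no call among the 44. Of the related genes, HM13, GCN1, HSPA9, HSPD1 and DNAJA1 lost their calls with no variance trend and under the block, and FAM8A1 kept its call. Among the genes named from the 44 and the related lists, signs turned only for genes near 0. With equal totals P4HB had -4.14e-05 and DNAJC10 -0.0035. Over left-out libraries the log2 fold changes ran -0.0103 to 0.0454 for ATF4, -0.0470 to 0.0245 for CREB3, -0.1051 to 0.0557 for CREB3L2, -0.0141 to 0.0683 for DNAJC3, -0.0072 to 0.0205 for P4HB, -0.0581 to 0.0538 for DNAJC10, -0.0368 to 0.0274 for ERO1A, -0.0767 to 0.0138 for EDEM1, -2.28e-05 to 0.0860 for EDEM3, -0.0135 to 0.1305 for DERL1, -0.0096 to 0.0501 for PPP1R15B and, outside the 44, -0.0345 to 0.0850 for VEGFA. The reads behind each value are unknown, so the precision of low genes such as ATF3 and CHAC1 is known only from the spread between 3 libraries.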

Other observations

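Of the 40 other ATF4 targets, the groups did not overlap for 15 (37.5%), 10 lower and 5 higher. The share over all genes was 24.0%. Among the 10 lower were 3 enzymes of serine metabolism, and none passed the threshold. PHGDH, which starts serine synthesis from a glycolytic intermediate, stood at 190, 152 and 153 normalized counts in the siNT libraries and at 110, 125 and 98.6 in the siMNX1 libraries (log2 fold change -0.56, limma, adjusted p = 0.0746). PSAT1, the next enzyme, had 289, 271 and 264 in siNT and 194, 220 and 212 in siMNX1 (log2 fold change -0.39, limma, adjusted p = 0.0681). CBS, which joins serine to homocysteine, had 1797 ± 11.1 and 1528 ± 74.0 (log2 fold change -0.24, limma, adjusted p = 0.0543). Every siMNX1 library lay below every siNT library for these 3 genes, which were picked after their values were seen. PSPH, the last step of serine synthesis, overlapped between the groups (log2 fold change -0.06), as did SHMT2 (-0.06), MTHFD2 (-0.07) and CTH, which follows CBS on the way to cysteine (-0.09, limma, adjusted p = 0.876). No list of serine enzymes was tested. Genes of the same list with other roles were lower as well, such as JDP2 (-1.06, limma, adjusted p = 0.142) and DDIT4 (-0.53, limma, adjusted p = 0.171), the latter with overlapping groups. The 5 higher without overlap were VLDLR, CEBPG, SARS1, AARS1 and LARS1, with log2 fold changes from 0.05 (VLDLR) to 0.20 (LARS1).

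In the related lists, KDELR1, which returns ER chaperones from the Golgi, had 2805 ± 69.1 in siNT and 2450 ± 36.7 in siMNX1 (log2 fold change -0.20, limma, adjusted p = 0.058). SEC61B, a subunit of the ER translocon, had 1110 ± 30.4 and 946 ± 8.96 (log2 fold change -0.23, limma, adjusted p = 0.0641). OS9, a lectin that hands misfolded glycoproteins to SEL1L, had 5633 ± 195 and 6372 ± 190 (log2 fold change 0.18, limma, adjusted p = 0.0745). The groups did not overlap for any of these 3, as for 24.0% of all genes. These 3 were likewise chosen after their values were seen.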
